A study of Mus musculus with 18 samples.

Results

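The 43 genes described here encode proteins of mouse DNA replication, and they were taken by name from a fixed list: 5 genes of origin licensing (Orc1, Orc6, Cdc6, Cdt1 and Gmnn), the 6 subunits Mcm2 to Mcm7 of the replicative helicase, 5 genes of helicase activation (Mcm10 and Gins1 to Gins4), 7 of the polymerases and primase (Pola1, Pola2, Prim1, Prim2, Pold1, Pole and Pole2), 6 of the clamp and its loader (Pcna and Rfc1 to Rfc5), 3 of single-strand binding (Rpa1 to Rpa3), 2 of Okazaki fragment joining (Fen1 and Lig1), 6 of deoxynucleotide supply and uracil removal (Rrm1, Rrm2, Tyms, Tk1, Dut and Ung) and 3 of chromatin assembly and maintenance (Chaf1a, Chaf1b and Uhrf1). All 43 were present among the 23418 genes of the expression table, and all 43 were among the 11238 genes that reached at least 1 RPKM (reads scaled by the length of the gene model and by the reads of the library) in at least 3 of the 18 libraries and were tested. The libraries come from cultured C57BL/6 mouse leukemia cells transformed with MLL-AF9, MLL-AF6 or MLL-AF1p, which are fusions of the histone methyltransferase MLL to 3 different partner proteins. Each kind of cell received either 6 µM MI-2-2, an inhibitor of the contact between the chromatin adaptor menin and MLL, or vehicle alone, with DMSO at 0.25% in both arms, for 6 days, and at day 3 the medium and agent were renewed and the cell density was set back to its starting value. Every one of the 6 groups has 3 libraries. All cells carry a fusion, and untransformed cells were not analysed here. The labels do not say whether a construct is represented by 1 line or several, or whether the 3 libraries of a group came from separate cultures, and p-values therefore measure no more than how far these libraries scatter, part of which may be technical.

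A eukaryotic chromosome is licensed for replication when the origin recognition complex, Cdc6 and Cdt1 load MCM helicase rings onto DNA before S phase, and geminin, the product of Gmnn, blocks Cdt1 afterwards. Rings are then activated with Mcm10 and the GINS complex, polymerase alpha with primase starts each strand, polymerases delta and epsilon extend them, and the ring-shaped clamp PCNA, opened by the replication factor C subunits, holds the polymerases on the template. Transcription of many of these genes rises towards S phase under E2F transcription factors, so their messenger RNA is widely used as a sign of cycling cells.

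Promoter sequences bear on genes that are thought to share control by E2F and NF-Y, and 35 of the 43 genes matched an entry of the RefSeq promoter table (build GRCm38.p6, 250 bases before to 50 bases after the annotated start). An E2F word (TTTCCCGC, TTTCGCGC, TTTGCCGC or TTTGGCGC, either strand, overlapping matches allowed) lay in 14 of the 35 (40.0%), namely Cdc6, Cdt1, Gins3, Lig1, Mcm3, Mcm5, Mcm6, Mcm7, Orc1, Pola1, Pold1, Pole2, Rfc3 and Uhrf1. The same words lay in 2.6% of the 27025 genes of the table and in 4.95% of the 8349 of them that were also tested here, and in 2.26% of its 32851 promoters. The NF-Y word CCAAT, on either strand, was present in 21 of the 35 (60.0%) against 41.1% of all genes, 43.6% of those tested and 37.4% of all promoters. The cell-cycle homology word TTTGAA was present in 3 of the 35 (8.57%) against 20.2% of all genes, 14.1% of those tested and 17.9% of all promoters. A match describes letters and is not a binding site shown by these data. The 6 promoters below were chosen by the difference between MI-2-2 and DMSO averaged over the 3 constructs: Mcm6 and Pole2 had the lowest mean among genes with an E2F word (-0.23 and -0.14), Rrm2 and Orc1 the highest of all (0.54 each), and Dut and Rpa3 the lowest of all (-0.78 and -0.62). Each line runs 5′ to 3′ along the gene from 220 bases before the start to 30 bases after it, and capitals mark E2F and CCAAT words on either strand.
Mcm6 (chr1:128359676-128359925, minus strand): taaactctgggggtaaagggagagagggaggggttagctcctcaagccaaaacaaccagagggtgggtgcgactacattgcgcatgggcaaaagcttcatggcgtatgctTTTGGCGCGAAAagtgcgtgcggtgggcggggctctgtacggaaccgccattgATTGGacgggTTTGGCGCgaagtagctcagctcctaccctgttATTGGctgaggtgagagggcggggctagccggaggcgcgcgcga
Pole2 (chr12:69228161-69228410, minus strand): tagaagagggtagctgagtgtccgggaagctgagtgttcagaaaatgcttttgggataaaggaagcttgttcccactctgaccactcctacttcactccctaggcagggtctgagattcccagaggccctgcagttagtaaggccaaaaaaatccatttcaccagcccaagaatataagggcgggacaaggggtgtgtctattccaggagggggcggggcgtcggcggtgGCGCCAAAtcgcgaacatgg
Rrm2 (chr12:24708034-24708283, plus strand): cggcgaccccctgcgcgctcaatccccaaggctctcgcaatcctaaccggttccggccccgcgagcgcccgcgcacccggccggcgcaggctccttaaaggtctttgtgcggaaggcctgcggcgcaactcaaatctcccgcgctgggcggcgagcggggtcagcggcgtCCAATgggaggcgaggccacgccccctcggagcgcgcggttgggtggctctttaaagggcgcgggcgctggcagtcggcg
Orc1 (chr4:108579234-108579483, plus strand): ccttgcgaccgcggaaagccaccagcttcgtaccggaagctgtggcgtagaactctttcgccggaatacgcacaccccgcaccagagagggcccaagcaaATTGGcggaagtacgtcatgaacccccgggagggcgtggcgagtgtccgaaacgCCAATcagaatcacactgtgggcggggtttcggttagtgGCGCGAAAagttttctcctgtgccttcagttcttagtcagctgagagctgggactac
Dut (chr2:125247295-125247544, plus strand): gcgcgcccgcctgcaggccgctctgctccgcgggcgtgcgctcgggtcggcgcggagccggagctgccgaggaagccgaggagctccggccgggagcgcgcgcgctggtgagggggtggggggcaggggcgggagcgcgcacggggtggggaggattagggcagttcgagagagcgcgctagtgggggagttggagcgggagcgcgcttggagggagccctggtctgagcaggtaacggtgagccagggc
Rpa3 (chr6:8259112-8259361, minus strand): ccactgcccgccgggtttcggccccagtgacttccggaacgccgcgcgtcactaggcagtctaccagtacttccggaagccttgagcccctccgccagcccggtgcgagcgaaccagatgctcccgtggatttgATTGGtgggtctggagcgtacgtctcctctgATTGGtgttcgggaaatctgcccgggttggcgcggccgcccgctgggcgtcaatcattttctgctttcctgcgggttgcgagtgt
The Mcm6 stretch holds 3 E2F words, the first 2 overlapping, at 110, 106 and 47 bases before the start, and 2 CCAAT words. Orc1 has 1 E2F word 27 bases before the start and 2 CCAAT words, and Pole2 has 1 E2F word that begins 11 bases after it. Rrm2 has 1 CCAAT word, Rpa3 has 2, and Dut has neither word in this window.

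The effect of MI-2-2 was read in each construct first. In MLL-AF9 cells 19 of the 43 rose (44.2%, against 28.5% of all genes tested) and 5 fell (11.6%, against 27.9%), with a median difference of 0.20 on the log2(RPKM + 0.5) scale where the median over all genes was 0.00. In MLL-AF6 cells 1 rose (2.33%, against 18%) and 10 fell (23.3%, against 38.9%), and in MLL-AF1p cells 3 rose (6.98%, against 19.1%) and 6 fell (14.0%, against 26.3%). The median of the 43 in MLL-AF6 cells was -0.06 beside -0.16 for all genes tested, but it was 0.02 after median centring and 0.03 after quantile normalization, so it has no stable sign. In MLL-AF1p cells it was -0.04 beside -0.06, and between -0.03 and -0.00 in the rescaled data. A gene counts as risen or fallen where limma gave a Benjamini-Hochberg adjusted p under 0.05 over all 11238 genes. In bulk RNA, fewer cells in S phase and less RNA per cell cannot be told apart.

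**Figure D1:**
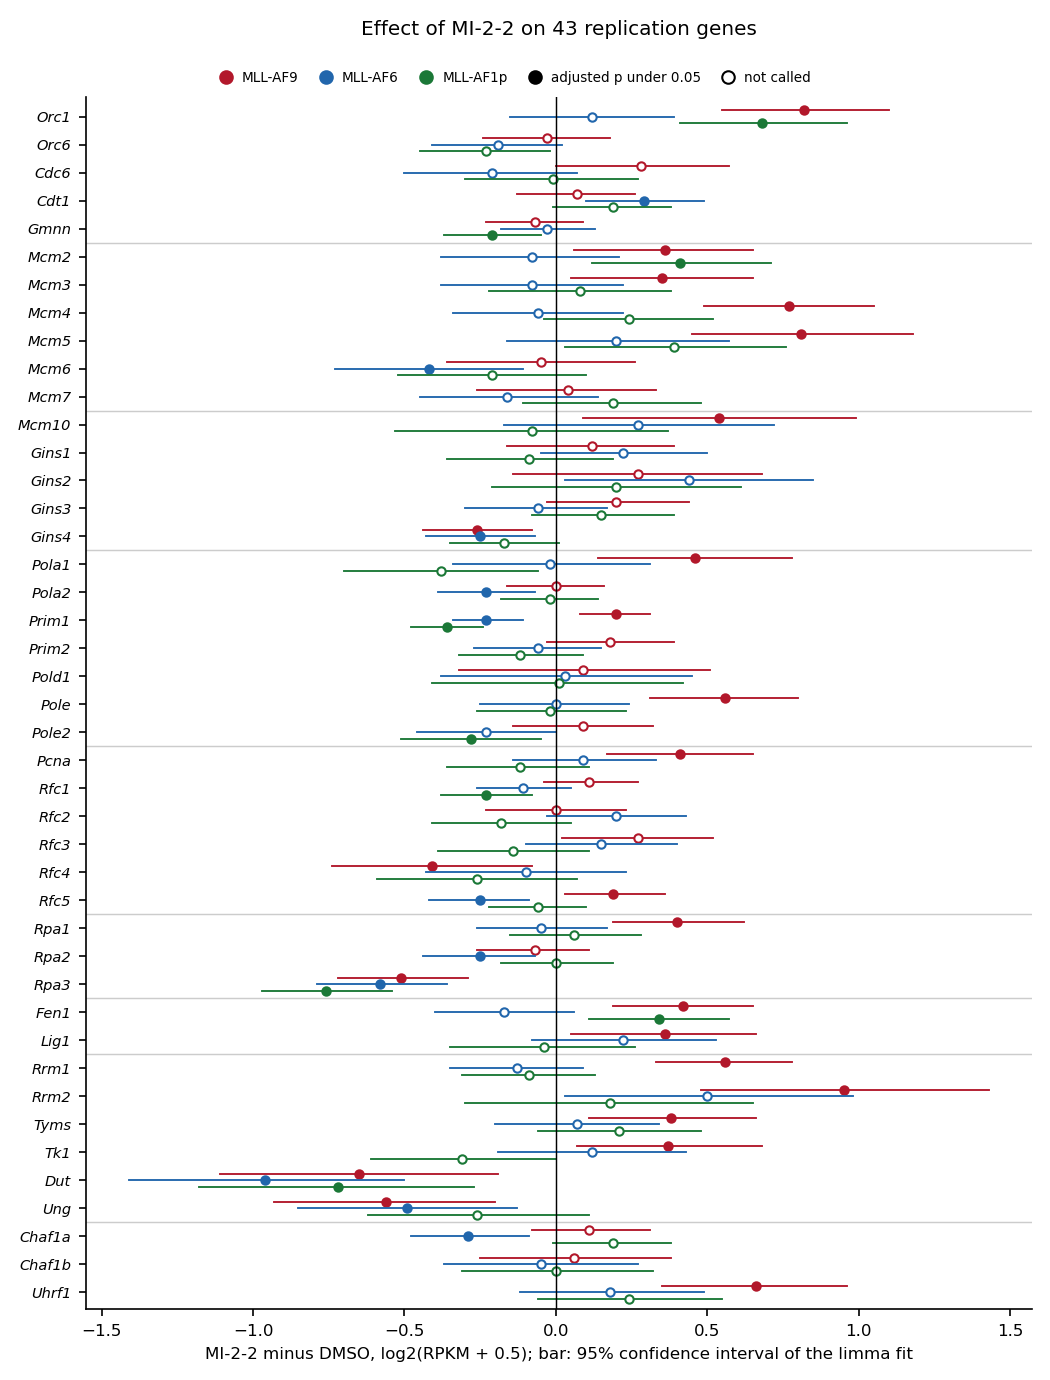
Difference between MI-2-2 and DMSO for each of the 43 genes (rows, grouped by role), with 1 marker for each of the 3 constructs, on the log2(RPKM + 0.5) scale with 95% confidence intervals; filled points passed the test. The MLL-AF9 points lie to the right for most helicase and nucleotide genes, while Rpa3 and Dut lie left of 0 in all 3 constructs.

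These counts depended on single libraries. In MLL-AF9 cells the 19 rises became 12 without DMSO replicate 1 and 11 without MI-2-2 replicate 2, and the 5 falls became 1 without DMSO replicate 2 and 2 without MI-2-2 replicate 1 or 3. The 10 falls in MLL-AF6 cells became 5 without DMSO replicate 3 or without MI-2-2 replicate 1, and 3 falls with 3 rises after median centring, or 3 falls with 4 rises after quantile normalization, which also moved the genes called over the whole table (2025 higher and 4377 lower as deposited, 2441 and 3384 after median centring, 2294 and 3628 after quantile normalization). The single rise there became 0 without MI-2-2 replicate 2 and 2 without DMSO replicate 2 or MI-2-2 replicate 1. Because the 6 groups share 1 estimate of the spread it also became 3 without MLL-AF9 DMSO replicate 1, and 2 without MLL-AF9 DMSO replicate 2 or MLL-AF1p DMSO replicate 2. The 6 falls in MLL-AF1p cells became 3 without DMSO replicate 3 or MI-2-2 replicate 1 or 3, and the 3 rises became 1 without DMSO replicate 2. Median centring left 11 rises and 5 falls in MLL-AF9 cells, so that 25.6% of the 43 rose beside 23.9% of all genes tested under that scaling. After quantile normalization 34.9% rose beside 24.6%. Calls that held in both rescalings and in the omission of each of the 6 libraries of that construct were the rises of Orc1, Mcm4, Mcm5, Pole, Pcna, Rpa1, Fen1, Rrm1, Rrm2 and Uhrf1 and the fall of Rpa3 in MLL-AF9 cells, the falls of Rpa3 and Dut in MLL-AF6 cells, and the rise of Orc1 with the falls of Prim1, Rpa3 and Dut in MLL-AF1p cells. Every other call of MI-2-2 against DMSO among the 43 genes was lost in at least 1 of these settings. In turn, Rrm2 and Gins2 in MLL-AF6 cells passed as higher in both rescalings and Rfc2 there after quantile normalization.

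Among the licensing genes, Orc1, the largest subunit of the origin recognition complex, had the widest differences in MLL-AF9 and MLL-AF1p cells, and Cdt1 in MLL-AF6 cells. In MLL-AF9 cells its level was 2.07, 1.8 and 1.83 RPKM in the DMSO libraries and 3.53, 3.92 and 3.77 RPKM with MI-2-2. The groups lay far apart, and Orc1 rose by 0.82 (SE 0.129, adjusted p = 5.79e-05, limma). In MLL-AF1p cells it went from 3.65, 2.23 and 3.88 RPKM to 5.59, 5.43 and 5.18 RPKM, a rise of 0.68 (adjusted p = 0.000501). MLL-AF6 cells showed 2.54, 2.54 and 2.74 RPKM in DMSO and 2.86, 2.81 and 2.96 RPKM with MI-2-2, a difference of 0.12 with a 95% interval of -0.15 to 0.39 (adjusted p = 0.442). Orc1 had the lowest mean RPKM of the 43 genes, 3.3 over the 18 libraries, so its values rest on fewer reads than the others. Cdt1, which loads the helicase, rose in MLL-AF6 cells, from 35.6, 30.7 and 32.8 RPKM to 37.5, 44 and 40.5 RPKM (0.29, adjusted p = 0.0119), a call lost without DMSO replicate 2 or MI-2-2 replicate 2 (highest adjusted p 0.0571). Its inhibitor Gmnn fell in MLL-AF1p cells, from 96.2, 83 and 96.1 RPKM to 75.1, 82.1 and 80.3 RPKM (-0.21, adjusted p = 0.0297), with all 3 MI-2-2 values below the DMSO values. The Gmnn call was lost in 4 of 6 omissions, after median centring and with reads thinned to the smallest library. Orc6 and Cdc6, an origin subunit and a helicase loader, passed in no construct, although Orc6 passed as lower in MLL-AF1p cells by voom on the recovered reads and with that construct fitted alone (-0.23, adjusted p = 0.0689 by limma on RPKM).

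Of the 6 helicase subunits, Mcm2, Mcm3, Mcm4 and Mcm5 rose in MLL-AF9 cells and Mcm6 and Mcm7 did not pass. Mcm5 stood at 29, 51.7 and 39.9 RPKM in DMSO and 62.9, 79.9 and 65.5 RPKM with MI-2-2, a rise of 0.81 (SE 0.172, adjusted p = 0.000862). Mcm4 stood at 20.2, 26.9 and 26.3 RPKM and then at 39, 47.1 and 39.6 RPKM, a rise of 0.77 (SE 0.133, adjusted p = 0.000143). For both genes the highest DMSO library stayed below the lowest MI-2-2 library. Mcm2 and Mcm3 rose by 0.36 and 0.35 (adjusted p = 0.0388 and 0.0422), calls lost in 5 and 4 of the 6 omissions. Both calls were also lost after median centring. In MLL-AF6 cells only Mcm6 passed among the 6, falling from 96.9, 119 and 116 RPKM to 75.4, 93.9 and 78.2 RPKM (-0.42, adjusted p = 0.0219). This call was lost in 4 of 6 omissions and after median centring. In MLL-AF1p cells Mcm2 passed, going from 60.5, 43.6 and 55.6 RPKM to 71, 70 and 70 RPKM (0.41, adjusted p = 0.0239), a call lost in 4 of 6 omissions.

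Inside the helicase the shares of Mcm2, Mcm4, Mcm5 and Mcm6 each differed between treatments in the same direction in all 3 constructs. The sum overlapped between treatments in each construct. This was not so of every subunit: the mean share of Mcm3 was 18.3 and then 19.2% in MLL-AF9 cells but 19.0 and then 18.5% in MLL-AF1p cells, and that of Mcm7 was 23.1 and then 19.5% in MLL-AF9 cells but 18 and then 18.8% in MLL-AF1p cells. Summed RPKM of Mcm2 to Mcm7 was 354 ± 79.1 in DMSO and 425 ± 41.8 with MI-2-2 in MLL-AF9 cells, 393 ± 36.9 and 356 ± 37.8 in MLL-AF6 cells, and 533 ± 76.3 and 576 ± 1.25 in MLL-AF1p cells (SD, n = 3). RPKM is scaled by the length of the gene model, so ranks and shares between genes depend on that length. By this measure Mcm6 was the highest of the 6 in every group. Its share of the sum was 27.9, 29.2 and 27.3% in the MLL-AF9 DMSO libraries and 22.5, 22.3 and 22.2% with MI-2-2. In MLL-AF6 cells the Mcm6 share was 27.7, 28.6 and 28.1% and then 23.2, 23.6 and 22.6%. MLL-AF1p cells gave 28.6, 31.1 and 29.5% and then 23.4, 23.7 and 23.6%. All 9 treated libraries thus lay below all 9 DMSO libraries. The share of Mcm5 moved in the other direction, with 10.6 to 12.0% in MLL-AF9 DMSO libraries and 15.8 to 16.9% with MI-2-2. The ranges were 11.8 to 12.8% and 15.0 to 16.4% in MLL-AF6 cells, and 12.9 to 13.5% and 15.8 to 16.1% in MLL-AF1p cells. Mcm4 and Mcm2 moved as Mcm5 did. For Mcm4 the ranges were 6.23 to 7.37% and then 9.77 to 9.95% in MLL-AF9 cells. They were 9.41 to 9.98% and 10.1 to 10.5% with MLL-AF6, and 9.62 to 10.3% and 10.7 to 11.1% with MLL-AF1p. The Mcm2 ranges were 12.1 to 12.4% and 12.7 to 13.1%, 11.3 to 11.6% and 11.7 to 12.2%, and 9.79 to 10.3% and 12.1 to 12.3%, in that order. This pattern was noticed in the values and was given no test, and a share that moves shows unequal change and not which subunit moved.

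**Figure D2:**
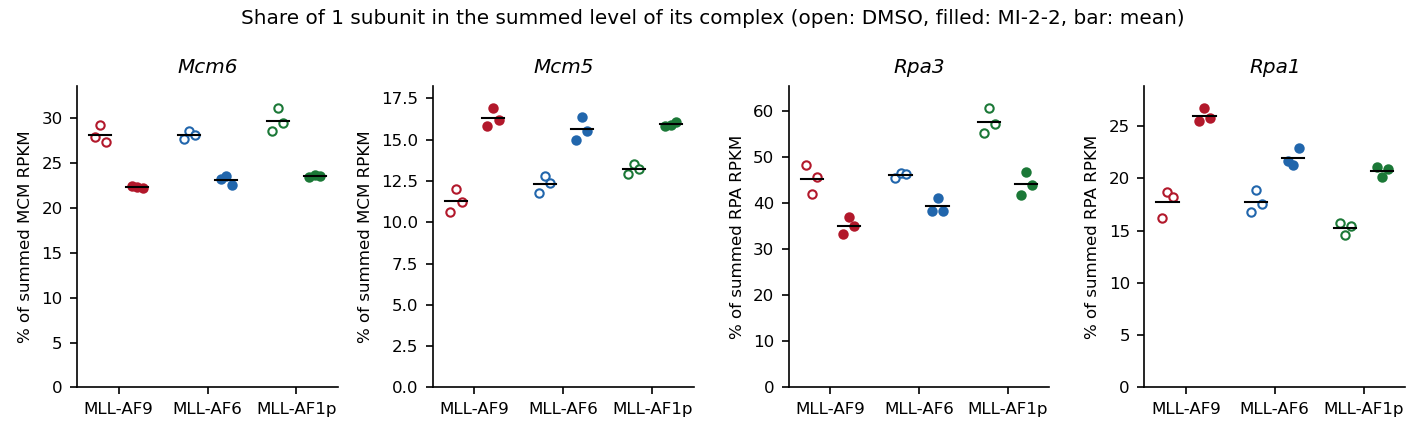
Share of 1 subunit in the summed RPKM of the MCM helicase (Mcm6, Mcm5) or of the RPA trimer (Rpa3, Rpa1), in percent, for each library in DMSO (open) and MI-2-2 (filled); bars are means of 3. In each construct the Mcm6 and Rpa3 shares are lower and the Mcm5 and Rpa1 shares higher in all treated libraries.

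Helicase activation genes passed in few cases. Mcm10, needed to open the loaded helicase, rose in MLL-AF9 cells, from 5.59, 12 and 8.84 RPKM to 11.8, 15.2 and 10.8 RPKM (0.54, adjusted p = 0.0399), with overlapping groups, and the call was lost in 4 of 6 omissions and both rescalings. Gins4, a GINS subunit, fell in MLL-AF9 cells (24.9, 31.5 and 26.3 RPKM to 21.8, 24.4 and 22.3 RPKM; -0.26, adjusted p = 0.0165) and in MLL-AF6 cells (24.3, 28.4 and 26.8 RPKM to 20.7, 23.6 and 22.5 RPKM; -0.25, adjusted p = 0.0216). Each of these calls was lost in 3 of 6 omissions, and the call in MLL-AF6 cells in both rescalings as well. Gins1, Gins2 and Gins3 passed in no construct as deposited.

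Among polymerase genes, Prim1, the catalytic primase subunit that makes the RNA primer, had opposite calls between constructs. It went from 25.9, 27.5 and 27.7 RPKM to 30.3, 31 and 31.9 RPKM in MLL-AF9 cells, a rise of 0.20 (SE 0.0551, adjusted p = 0.0069). In MLL-AF6 cells it fell by 0.23, from 27.3, 27 and 28.5 RPKM to 23.4, 24.7 and 22.5 RPKM (adjusted p = 0.0026). In MLL-AF1p cells it fell by 0.36, from 42.6, 42.7 and 47.3 RPKM to 35.2, 34 and 33.8 RPKM (adjusted p = 8.4e-05). The groups did not overlap in any of the 3 constructs, although the rise in MLL-AF9 cells was lost after median centring and the fall in MLL-AF6 cells after quantile normalization. Pole, the catalytic subunit of the leading-strand polymerase, rose in MLL-AF9 cells, from 4.92, 6.96 and 5.84 RPKM to 8.37, 9.65 and 8.58 RPKM (0.56, adjusted p = 0.000741). The 95% interval of its difference was -0.25 to 0.24 in MLL-AF6 cells and -0.26 to 0.23 in MLL-AF1p cells. Pola1, the catalytic subunit of polymerase alpha, rose in MLL-AF9 cells (0.46, adjusted p = 0.0168) and stood at 15.2, 15 and 16 RPKM in MLL-AF1p DMSO libraries against 11.3, 12.2 and 11.6 RPKM with MI-2-2 (-0.38, adjusted p = 0.0513). The rise of Pola1 was lost in 2 of 6 omissions and after quantile normalization. In MLL-AF1p cells Pola1 passed as lower by voom, with a replicate block, with that construct fitted alone and with thinned reads. Pola2 fell in MLL-AF6 cells (-0.23, adjusted p = 0.0171) and Pole2, an accessory subunit of polymerase epsilon, fell in MLL-AF1p cells (-0.28, adjusted p = 0.0439), calls lost in 1 and 5 of 6 omissions. The calls of Pola2 and Pole2 were also lost in both rescalings. Prim2 and Pold1 passed in no construct.

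Pcna had the highest RPKM of the 43, at a mean of 252 RPKM over the 18 libraries. In MLL-AF9 cells it rose from 148, 199 and 180 RPKM to 217, 255 and 225 RPKM (0.41, SE 0.111, adjusted p = 0.00547). The 95% intervals in MLL-AF6 cells (-0.14 to 0.33) and MLL-AF1p cells (-0.36 to 0.11) both held 0. Of the clamp loader, Rfc5 rose in MLL-AF9 cells (0.19, adjusted p = 0.0409) and fell in MLL-AF6 cells (-0.25, adjusted p = 0.0105), Rfc4 fell in MLL-AF9 cells (-0.41, adjusted p = 0.0347) and Rfc1, its large subunit, fell in MLL-AF1p cells (-0.23, adjusted p = 0.0165). These 4 calls were lost in 3, 1, 4 and 3 of 6 omissions. Both calls of Rfc5 were also lost after median centring, and its fall after quantile normalization as well. Rfc2 and Rfc3 passed in no construct as deposited.

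The 3 subunits of RPA, which coats unwound single strands, did not move together. Rpa3, the smallest, fell in every construct. It went from 49.7, 44.9 and 46.8 RPKM to 29.9, 37.9 and 31.6 RPKM in MLL-AF9 cells (-0.51, SE 0.101, adjusted p = 0.000511). In MLL-AF6 cells it went from 42.7, 49.9 and 49.2 RPKM to 28.8, 36.2 and 29.6 RPKM (-0.58, adjusted p = 0.000169). In MLL-AF1p cells it went from 102, 98.4 and 102 RPKM to 54.5, 65.4 and 59.1 RPKM (-0.76, adjusted p = 2.24e-05). In no construct did a treated library reach the lowest DMSO library, and the F test of a difference between constructs gave an adjusted p of 0.292. Rpa1, the large subunit, rose in MLL-AF9 cells, from 16.7, 19.9 and 18.7 RPKM to 22.9, 27.4 and 23.3 RPKM (0.40, adjusted p = 0.0033), and Rpa2 fell in MLL-AF6 cells (-0.25, adjusted p = 0.0199), a call lost in 3 of 6 omissions and both rescalings. Rpa3 made up 42.0 to 48.2% of summed RPA RPKM in MLL-AF9 DMSO libraries and 33.4 to 36.9% with MI-2-2, 45.4 to 46.5% and then 38.3 to 41.2% in MLL-AF6 cells, and 55.2 to 60.6% and then 41.7 to 46.7% in MLL-AF1p cells. The Rpa1 share was higher in every treated library of each construct than in its DMSO libraries.

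Both genes that join Okazaki fragments rose in MLL-AF9 cells. Fen1, the flap endonuclease, went from 11.9, 14.1 and 12.3 RPKM to 17.1, 18 and 16.4 RPKM (0.42, adjusted p = 0.00385). In MLL-AF1p cells Fen1 went from 18.6, 12.6 and 17.6 RPKM to 20.6, 20.1 and 20.6 RPKM (0.34, adjusted p = 0.0175), a call lost without DMSO replicate 2, the low library (adjusted p = 0.0751). In MLL-AF6 cells it stood at 16.2, 15.7 and 16.2 RPKM and then at 13.4, 14.6 and 14.7 RPKM (-0.17, adjusted p = 0.195). Lig1, the DNA ligase, rose in MLL-AF9 cells by 0.36 (adjusted p = 0.0431), a call lost in 5 of 6 omissions and both rescalings.

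Of the 6 nucleotide genes among the 43, Rrm1, Rrm2, Tyms and Tk1 rose in MLL-AF9 cells, and Dut and Ung fell. This is no trait of nucleotide synthesis at large: of 22 other such genes, given below, 4 rose and 9 fell there. Rrm2, the S-phase subunit of ribonucleotide reductase, had the largest rise of the 43 in MLL-AF9 cells, 0.95 (SE 0.224, adjusted p = 0.00196), from 21.7, 48.9 and 39.2 RPKM to 60.2, 82.3 and 62.6 RPKM. Its values were 39, 50.7 and 50 RPKM and then 53.5, 81.9 and 65.2 RPKM in MLL-AF6 cells (0.50, adjusted p = 0.0661, without overlap of the groups and past the threshold in both rescalings), and 106, 95.3 and 106 RPKM and then 113, 118 and 116 RPKM in MLL-AF1p cells (0.18, adjusted p = 0.55). Rrm1, the large subunit, rose in MLL-AF9 cells from 36.8, 43.9 and 41.7 RPKM to 56.5, 66.1 and 57.9 RPKM (0.56, adjusted p = 0.000303). Tyms and Tk1, which supply thymidylate by synthesis and by salvage, rose there by 0.38 and 0.37 (adjusted p = 0.0184 and 0.0379), calls lost in 2 and 5 of 6 omissions. The rise of Tyms was also lost in both rescalings, and that of Tk1 after median centring. Dut, the enzyme that destroys dUTP, went the other way in all 3 constructs. In MLL-AF9 cells it fell from 15, 28.8 and 20.9 RPKM to 12.1, 14.9 and 12.5 RPKM (-0.65, SE 0.214, adjusted p = 0.0174), a call lost without DMSO replicate 2, MI-2-2 replicate 1 or MI-2-2 replicate 3 (highest adjusted p 0.101). In MLL-AF6 cells it fell from 17.8, 29 and 27.9 RPKM to 9.89, 16.1 and 11.6 RPKM, the largest fall of the 43 (-0.96, adjusted p = 0.00139). In MLL-AF1p cells it fell from 36.9, 37.4 and 38.4 RPKM to 22.7, 23.5 and 21.6 RPKM (-0.72, adjusted p = 0.0124). Ung, the glycosylase that removes uracil from DNA, went from 7.16, 12 and 10.2 RPKM to 6.47, 6.41 and 6.11 RPKM in MLL-AF9 cells (-0.56, adjusted p = 0.0107), and the call was lost without DMSO replicate 2 (adjusted p = 0.0596). It fell in MLL-AF6 cells as well (-0.49, adjusted p = 0.0226), a call lost in 3 of 6 omissions and both rescalings, and it stood at 9.59, 6.91 and 8.68 RPKM and then at 7.3, 6.76 and 6.61 RPKM in MLL-AF1p cells (-0.26, adjusted p = 0.237).

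**Figure D3:**
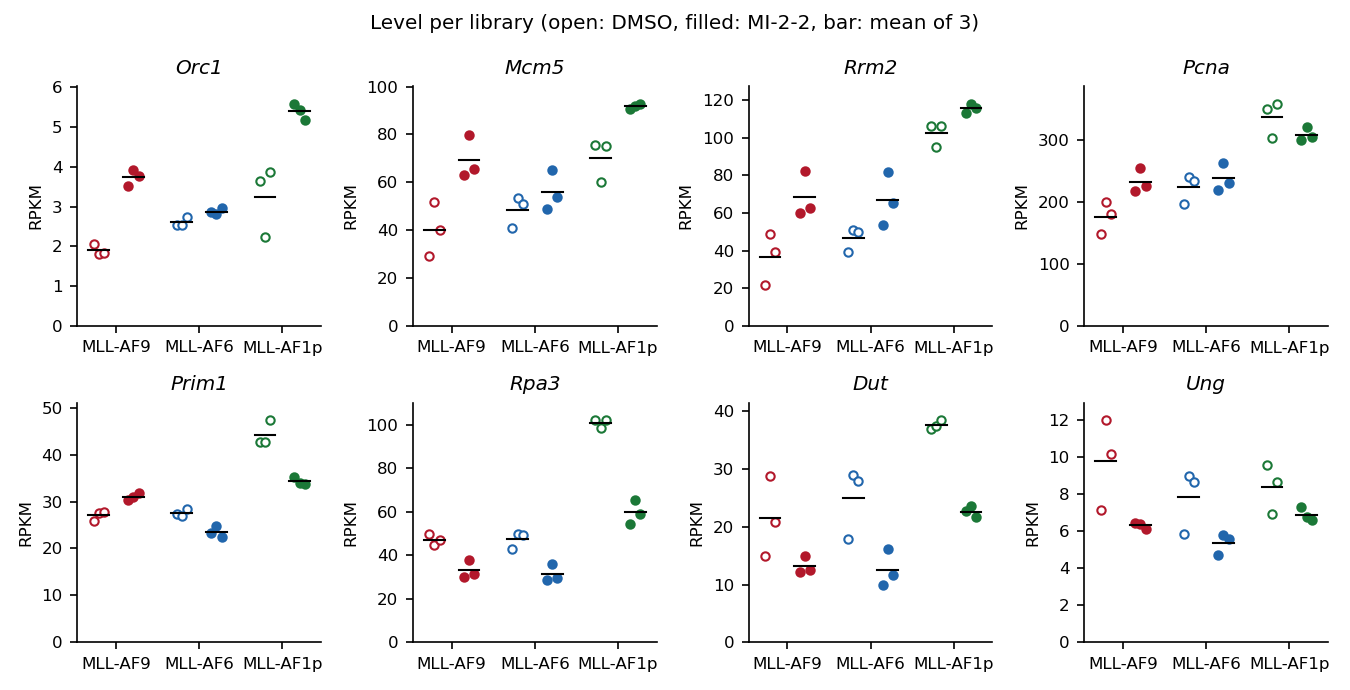
RPKM of 8 of the 43 genes in each library of the 3 constructs, DMSO open and MI-2-2 filled, with bars at the mean of 3. Rpa3 is lower with MI-2-2 in every treated library of each construct, while Prim1 lies higher in MLL-AF9 cells and lower in MLL-AF6 and MLL-AF1p cells.

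Of the chromatin genes, Uhrf1, which carries DNA methylation over to new strands, rose in MLL-AF9 cells from 7.58, 12.1 and 10.4 RPKM to 15.8, 17.3 and 14.6 RPKM (0.66, adjusted p = 0.0011). Chaf1a, the large subunit of chromatin assembly factor 1, fell in MLL-AF6 cells from 28.5, 24.9 and 29.6 RPKM to 22.3, 22.4 and 23 RPKM (-0.29, adjusted p = 0.0168), a call lost without DMSO replicate 3 and in both rescalings. Its partner Chaf1b passed in no construct. In all, 32 of the 43 passed in at least 1 construct, where 84% of all genes tested did, and 11 in none.

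The difference of the MI-2-2 effect between constructs was tested itself. By the F test it passed for 13 of the 43 (30.2%), where 52.8% of all genes tested passed. They were Orc1, Mcm4, Pola1, Prim1, Pole, Pcna, Rfc1, Rfc5, Rpa1, Fen1, Rrm1, Tk1 and Chaf1a. Leaving out MLL-AF9 DMSO replicate 2 raised this count to 24, and median centring lowered it to 7. Over all genes tested, median centring lowered the count from 5937 to 5534. In pairs, the effect was lower in MLL-AF6 than in MLL-AF9 cells for 9 genes (20.9%, against 24% of all genes tested) and lower in MLL-AF1p than in MLL-AF9 cells for 8 (18.6%, against 21.4%). It was higher in MLL-AF1p than in MLL-AF6 cells for Orc1, Fen1 and Chaf1a (6.98%, against 19.5%). These pairs share the effect of 1 construct. The widest gaps were Mcm4 between MLL-AF6 and MLL-AF9 cells (-0.83, adjusted p = 0.00367) and Pola1 between MLL-AF1p and MLL-AF9 cells (-0.84, adjusted p = 0.007). Prim1 differed in both of these pairs, by -0.42 (adjusted p = 0.000894) and -0.55 (adjusted p = 9.21e-05). The share of replication genes was below that of all genes tested for the F test and the last pair, and close to it for the first 2 pairs. In the other direction none passed in any pair, against 9.02, 13.6 and 11.6% of all genes tested, in the order given.

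Under DMSO the mean level was highest in MLL-AF1p cells for 40 of the 43 genes, and for 38.3% of all genes tested. Against MLL-AF9 cells 34 were higher (79.1%, against 36.5% of all genes tested) and none passed as lower by limma (28.6% of all genes did; 1 gene at an unadjusted p under 0.05, and 1 called by voom on the recovered reads), with a median difference of 0.62 beside 0.07. Against MLL-AF6 cells 35 were higher (81.4%, against 28.8%) and none passed as lower by limma (against 23.7%; 0 at an unadjusted p under 0.05 and 0 by voom), with a median of 0.57 beside 0.03. MLL-AF6 and MLL-AF9 cells lay closer: 7 genes were higher in MLL-AF6 cells (16.3%, against 29.1%) and 5 lower (11.6%, against 24.5%), and the median of 0.03 turned to -0.04 after median centring and -0.02 after quantile normalization. The 12 calls of that pair became 7 without MLL-AF9 DMSO replicate 3 and 6 without MLL-AF6 DMSO replicate 3. These 3 comparisons share libraries. The widest gap was that of Rrm2, at 106, 95.3 and 106 RPKM in MLL-AF1p cells against 21.7, 48.9 and 39.2 RPKM in MLL-AF9 cells (1.55, adjusted p = 2.22e-05). Pola1 followed, at 15.2, 15 and 16 RPKM against 4.27, 6.69 and 6.44 RPKM (1.36, adjusted p = 1.52e-06), then Rrm1 (1.23), Mcm10 (1.21), Mcm4 (1.12) and Rpa3 (1.09). Cdt1, Ung, Pola2, Chaf1a, Chaf1b, Gins2, Mcm7, Mcm2 and Pold1 did not pass between MLL-AF1p and MLL-AF9 cells. Between MLL-AF6 and MLL-AF9 cells Gins2 was lower in MLL-AF6 cells, at 9.92, 17.2 and 15 RPKM against 19.9, 29.3 and 28.3 RPKM (-0.87, adjusted p = 0.00144), and Mcm4 was higher (0.63, adjusted p = 0.000866). The MLL-AF1p libraries were also the deepest, with reads in units of 1000000 of 48.88 to 56.3 against 21.18 to 30.67 in the other 4 groups, so construct and depth cannot be told apart from the labels alone. With reads thinned to the smallest library, 34 genes were still called higher in MLL-AF1p than in MLL-AF9 cells, 1 lower, and 35 higher than in MLL-AF6 cells. The excess was not particular to these 43 genes. Of the neighbouring lists below, 95% of mitosis, 85% of E2F and RB, 82.4% of checkpoint and repair and 75% of other replication genes were higher than in MLL-AF9 cells. Against MLL-AF6 cells the shares were 100, 55, 76.5 and 69.4%, in that order. Other nucleotide synthesis genes gave 40.9% and 31.8%, nearer to all genes tested.

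**Figure D4:**
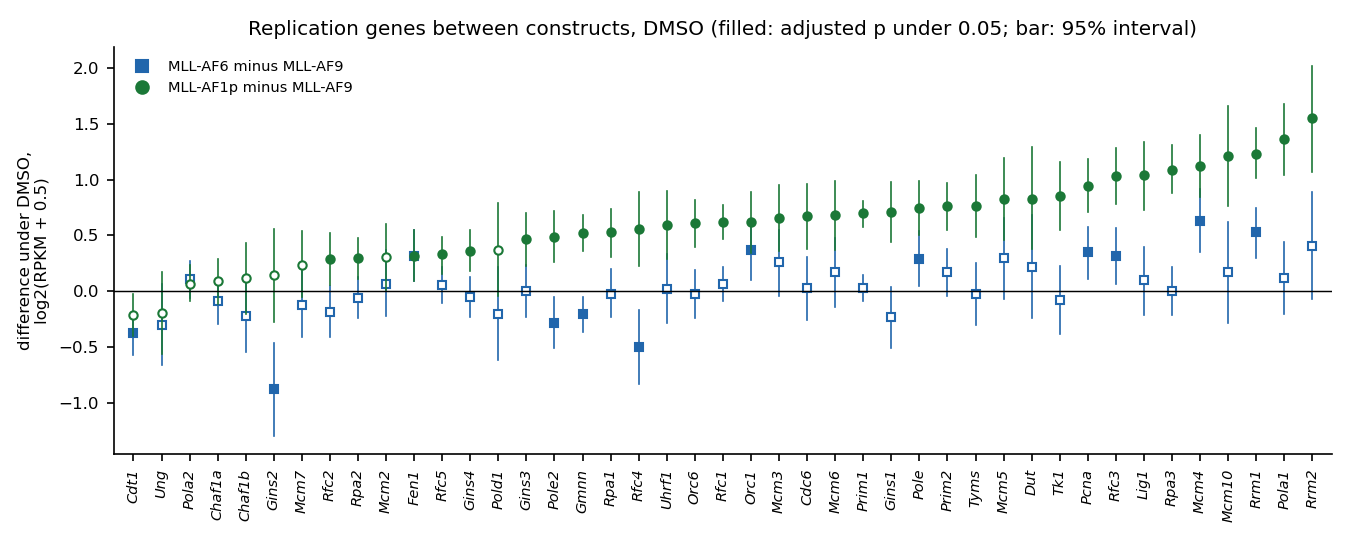
Difference under DMSO between MLL-AF6 and MLL-AF9 cells (squares) and between MLL-AF1p and MLL-AF9 cells (circles) for the 43 genes, on the log2(RPKM + 0.5) scale with 95% intervals, ordered by the second comparison; filled points passed the test. All but Cdt1 and Ung lie above 0 in MLL-AF1p cells, and the MLL-AF6 squares scatter on both sides of 0.

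The 43 genes also varied together between replicates of 1 group. Their reads made up 0.283, 0.397 and 0.342% of the 3 MLL-AF9 DMSO libraries, and 0.39, 0.449 and 0.391% of those with MI-2-2. In MLL-AF6 cells the shares were 0.329, 0.386 and 0.381% and then 0.32, 0.388 and 0.342%. In MLL-AF1p cells they were 0.578, 0.47 and 0.57% and then 0.535, 0.539 and 0.533%. So the highest MLL-AF9 DMSO library lay above 2 of the 3 treated ones, and the genes mostly kept 1 order of replicates: in MLL-AF9 DMSO replicate 1 was the lowest of 3 for 35 of the 43 genes and replicate 2 the highest for 34. In MLL-AF6 DMSO replicate 1 was the lowest for 38, and in MLL-AF1p DMSO replicate 2 was the lowest for 39. How many of all genes kept these orders was not counted. The median log2 level of all genes kept was 3.42, 3.37 and 3.44 in the MLL-AF9 DMSO libraries. It was 3.49, 3.48 and 3.48 in MLL-AF6 DMSO, and 3.5, 3.52 and 3.5 in MLL-AF1p DMSO. The median coefficient of variation of the 43 was 15.8% in MLL-AF9 DMSO (13.5% over all genes kept) and 10.4% in MLL-AF1p DMSO (6.74%), but 2.32% in MLL-AF1p MI-2-2 (3.79%). In the MLL-AF9 DMSO libraries the mean log2 level of the 20 mitosis genes was 4.5, 4.49 and 4.52 while that of the 43 replication genes was 4.15, 4.58 and 4.39. With MI-2-2 both lists were highest in replicate 2, at 4.79, 4.95 and 4.81 for mitosis and 4.52, 4.7 and 4.52 for replication. The same held in MLL-AF6 cells with MI-2-2 (4.55, 4.77 and 4.64, and 4.23, 4.48 and 4.33), and in MLL-AF1p DMSO both were lowest in replicate 2 (5.21, 5.15 and 5.23, and 5.09, 4.81 and 5.07). In MLL-AF6 DMSO replicate 1 was the highest for mitosis (4.52, 4.39 and 4.44) and the lowest for replication (4.26, 4.5 and 4.46).

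**Figure D5:**
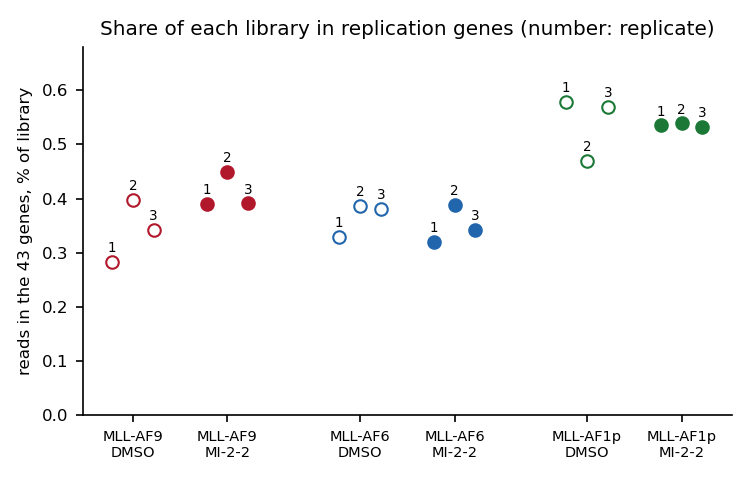
Percent of the reads of each library that fell in the 43 replication genes, by construct and treatment; numbers above the points are replicate numbers. The MLL-AF1p libraries lie between 0.47 and 0.578% and the other 12 libraries between 0.283 and 0.449%.

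Ratios of 2 genes were taken within each library. Over the 3 constructs, the ratio of Rrm2 to Rrm2b, the alternative small subunit of ribonucleotide reductase induced by p53, rose by a mean of 0.84 on the log2 scale. It was 9.64, 15.2 and 13.1 in MLL-AF9 DMSO libraries and 21.0, 20.7 and 20.3 with MI-2-2, 12.7, 8.64 and 10.9 and then 16.8, 20.4 and 22.6 in MLL-AF6 cells, and 20.3, 9.17 and 17.1 and then 26.6, 27.1 and 27.3 in MLL-AF1p cells. The low DMSO value of MLL-AF1p cells, 9.17, is replicate 2, where Rrm2b reached 10.4 RPKM beside 5.22 and 6.19 RPKM. Rrm2b itself fell in MLL-AF1p cells (-0.65, adjusted p = 0.0292) and had differences of 0.20 and -0.35 in MLL-AF9 and MLL-AF6 cells. Every treated library lay above the DMSO libraries of its construct (exact two-sided permutation test within construct over 8000 regroupings, p = 0.00025, the smallest possible, adjusted p = 0.00075 over 4 ratios). The ratio of Rrm2 to Rrm1 rose by a mean of 0.44 (0.40, 0.64 and 0.27 in the order used above, exact permutation adjusted p = 0.00075), although in MLL-AF9 cells DMSO replicate 2 reached 1.11, within the treated range of 1.06 to 1.24. The ratio of Cdt1 to its inhibitor Gmnn rose by a mean of 0.29 (0.14, 0.33 and 0.40, exact permutation adjusted p = 0.00075). It was 0.403, 0.396 and 0.412 in MLL-AF1p DMSO libraries and 0.597, 0.495 and 0.511 with MI-2-2, while in MLL-AF9 cells the groups overlapped. The ratio of Pole2 to Pole had a mean change of -0.34 (-0.51, -0.24 and -0.27, exact permutation adjusted p = 0.00075). These 4 ratios stayed past the threshold in the omission of each of the 18 libraries.

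Calls were also set against the promoter words shown above. In MLL-AF9 cells 6 of the 14 genes with an E2F word rose and none fell, and of the 21 without one 11 rose and 4 fell. In MLL-AF6 cells 1 of the 14 rose and 1 fell, against 0 and 8 of the 21. In MLL-AF1p cells 1 rose and 1 fell, against 2 and 4. Of all genes tested, 28.5% rose and 27.9% fell in MLL-AF9 cells. The shares were 18% and 38.9% in MLL-AF6 cells, and 19.1% and 26.3% in MLL-AF1p cells. No difference between genes with and without the word was tested. The genes that fell in more than 1 construct and have an entry, Rpa3, Dut, Prim1 and Ung, hold no E2F word in this window. The word is absent from most of the list, 21 of the 35 genes with an entry. These genes were picked by their calls, and a link between the word and a fall was not tested.

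Neighbouring gene lists of the same pathway gave counts in the same layout, with no test of the lists. The shares of all genes tested that rose and fell, 28.5 and 27.9% in MLL-AF9 cells, 18 and 38.9% with MLL-AF6, and 19.1 and 26.3% with MLL-AF1p, are the background for each. Of 36 other replication genes, 15 rose and 5 fell in MLL-AF9 cells (12 and 7 after median centring), 3 and 11 with MLL-AF6 (5 and 8), and 4 and 8 with MLL-AF1p (5 and 6). Rnaseh2a, the catalytic subunit of the nuclease that removes ribonucleotides from DNA, fell in all 3 (-1.17, -0.52 and -0.43), as did the histone chaperone Asf1a (-0.44, -0.58 and -0.34), whereas its paralog Asf1b rose in all 3 (0.45, 0.40 and 0.32). The maintenance methyltransferase Dnmt1 (0.38, 0.28 and 0.42) and the nuclease Dna2 (0.60, 0.59 and 0.31) rose in all 3. Hells, a chromatin remodeller, went from 8.4, 10.4 and 10.2 RPKM to 17.4, 18.2 and 17.9 RPKM in MLL-AF9 cells (0.86, adjusted p = 1.89e-06) and had differences of -0.13 and 0.10 in the others.

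Of 22 other genes of nucleotide synthesis, 4 rose and 9 fell in MLL-AF9 cells, none rose by limma and 14 fell in MLL-AF6 cells (0 rose at an unadjusted p under 0.05 or by voom, and 1 rose and 12 fell after quantile normalization), and 3 rose and 4 fell in MLL-AF1p cells. Umps, which completes uridylate synthesis, fell by 0.87 in both MLL-AF9 and MLL-AF6 cells (adjusted p = 6.43e-06 and 7.76e-06) and had a difference of -0.20 in MLL-AF1p cells. The purine enzyme Paics fell in all 3 (-0.53, -0.41 and -0.57). Shmt2 of folate metabolism (-1.10 and -0.58), the nucleotide pyrophosphatase Dctpp1 (-0.95 and -0.63), Gart (-0.52 and -0.71) and Impdh2 (-0.50 and -0.65), both of purine synthesis, fell in MLL-AF9 and MLL-AF6 cells. None of these 4 passed with MLL-AF1p, where Gart had a difference of 0.20.

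Of 20 genes of the E2F and RB network, 12 rose and 1 fell in MLL-AF9 cells, 5 and 6 with MLL-AF6 (7 and 5 after median centring), and 5 and 5 with MLL-AF1p. The activator E2f1 went from 21.2, 27.4 and 26.4 RPKM to 37.5, 32.9 and 37.2 RPKM in MLL-AF9 cells (0.52, adjusted p = 0.000547), with differences of 0.08 and 0.16 in the others. E2f2, another activator, rose by 0.79 and 1.06 in MLL-AF9 and MLL-AF6 cells (adjusted p = 0.000309 and 1.98e-05). The atypical repressor E2f8 rose in all 3 (0.79, 0.34 and 0.26) and its relative E2f7 in MLL-AF9 and MLL-AF6 cells (0.88 and 0.40). E2f4, a repressor in resting cells, fell in MLL-AF6 cells (-0.34) and rose in MLL-AF1p cells (0.29), E2f3 fell in MLL-AF6 cells (-0.33), E2f6 fell in MLL-AF6 and MLL-AF1p cells (-0.41 and -0.17), and E2f5 fell in MLL-AF1p cells (-0.37). Tfdp2, a dimer partner of E2F proteins, fell in all 3 (-0.65, -0.61 and -0.72). Cyclin A2, encoded by Ccna2, rose in MLL-AF9 and MLL-AF6 cells (0.90 and 0.53), and Fbxo5, an inhibitor of the anaphase-promoting complex, rose in MLL-AF9 cells (0.76).

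Of 17 checkpoint and repair genes, 9 rose and 3 fell in MLL-AF9 cells (52.9 and 17.6%), 1 and 7 with MLL-AF6 (5.88 and 41.2%), and 1 and 5 with MLL-AF1p (5.88 and 29.4%), so the share that fell in the last pair of constructs was close to that of all genes. The checkpoint clamp gene Rad1 fell in all 3 (-0.44, -0.46 and -0.42). Brca1 rose in MLL-AF9 and MLL-AF6 cells (0.71 and 0.39), Hus1, another gene of that clamp, rose in MLL-AF9 cells (0.82), and the mitotic brake Wee1 fell in MLL-AF6 and MLL-AF1p cells (-0.62 and -0.38). Of 20 mitosis genes, 14 rose in MLL-AF9 cells and 10 in MLL-AF6 cells with none called lower by limma (0 in each at an unadjusted p under 0.05 and 0 by voom), and 4 rose and 3 fell in MLL-AF1p cells; 6 were called higher in MLL-AF6 cells without MI-2-2 replicate 2. Bub1 of the spindle checkpoint rose by 1.06 and 0.53 and had a difference of 0.06 in MLL-AF1p cells. The kinase Plk1 rose in all 3 (0.38, 0.22 and 0.52), the proliferation marker Mki67 (0.37 and 0.37), Birc5 (0.37 and 0.45) and the kinetochore motor Cenpe (0.58 and 0.44) rose in MLL-AF9 and MLL-AF6 cells, and the spindle gene Nusap1 rose in these (0.33 and 0.32) and fell in MLL-AF1p cells (-0.51).

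Markers of mature myeloid cells moved with the treatment. All 10 macrophage markers were present, and 9 of them rose in MLL-AF9 cells, 8 with MLL-AF6 and 10 with MLL-AF1p. Their summed level was 147 to 215 RPKM in DMSO and 1410 to 1860 RPKM with MI-2-2 in MLL-AF9 cells, 210 to 296 and then 2180 to 2930 RPKM with MLL-AF6, and 93.6 to 98.3 and then 619 to 688 RPKM with MLL-AF1p. Of 9 mature neutrophil markers found, 9, 9 and 7 rose, with summed levels of 2870 to 4060 and then 24700 to 28800 RPKM, 2270 to 3120 and then 18700 to 20500 RPKM, and 3370 to 3820 and then 30800 to 35700 RPKM. Their part in the replication results was not tested. The 11 markers of myeloid leukemia cells were all present, with Elane the highest. Of these 5 rose and 6 fell in MLL-AF9 cells, 3 and 6 with MLL-AF6, and 3 and 2 with MLL-AF1p, and the summed level, to which Elane gives the most, was 6260 to 9230 and then 2700 to 2950 RPKM in MLL-AF9 cells, 5700 to 5900 and then 2660 to 3170 RPKM with MLL-AF6, and 6410 to 8840 and then 6910 to 7370 RPKM with MLL-AF1p. T cell, B cell and erythroid lists, of 4 genes each, summed to at most 2.89 RPKM, with Cd3e and Hba-a1 at 0 in all libraries. Of the 5 mast cell and basophil markers, Fcer1a and Prss34 were at 0 in all libraries and Mcpt8 was the highest, and the sum was at most 27.2 RPKM. The 4 stromal markers summed to at most 84.0 RPKM, with Pecam1 the highest.

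The library kit named in the labels does not mark strand, and 10 of the 43 genes overlap a coding gene on the other strand (Orc6, Mcm7, Gins2, Rfc2, Rfc4, Rfc5, Fen1, Lig1, Tk1 and Chaf1a), so reads of the 2 genes cannot be told apart there. Pcna and Tyms have annotated pseudogenes whose reads could be split with theirs.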

How the data were processed

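RNA was sequenced from 18 libraries of cultured mouse cells, 3 for each of 6 groups, after polyA selection with an unstranded kit. Per the submitters' processing notes, CASAVA 1.8.2, Bowtie2 2.0.0.7, HTSeq and edgeR were used with build mm9, and the authors deposited 1 table of RPKM values per gene and library. RPKM times gene length gave whole reads for 100% of values (tolerance 0.05), and these recovered reads gave the depth. Levels were tested as log2(RPKM + 0.5) with limma 3.58.1 in R 4.3.3, on 11238 genes with at least 1 RPKM in at least 3 libraries, as 6 group means (residual df 12). The prior variance followed a trend with level, and p-values were adjusted over all genes tested by the Benjamini-Hochberg method. A fold on this scale understates the change of low genes. Every adjusted p not named otherwise is limma's. The fit was tested on simulated data. Ratios of 2 genes were tested by exact permutation. The 43 genes and the gene lists were chosen with earlier results of these data known. All 43 genes are named, with every E2f gene and up to 6 genes of each other list by mean absolute change among those called. Some genes that this rule names are not reported here. Alternatives were a pseudocount of 0.1, quantile normalization, centring on the median, all genes unfiltered, a replicate block, a prior variance without trend, separate fits, voom on the recovered reads, each library left out and, chosen after seeing the data, reads thinned to the smallest library.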

Additional observations from a re-analysis of the deposited data

Results flagged for a closer look

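For 13 of the 43 replication genes the effect of MI-2-2 differed between the 3 constructs by limma's F test over all genes. The adjusted p was 0.0104 for Orc1, 0.00576 for Mcm4, 0.013 for Pola1, 0.000117 for Prim1, 0.0119 for Pole, 0.0296 for Pcna, 0.0277 for Rfc1, 0.00943 for Rfc5, 0.0365 for Rpa1, 0.0091 for Fen1, 0.00199 for Rrm1, 0.0307 for Tk1 and 0.0153 for Chaf1a. Of these genes, Prim1 and Rfc5 had a call in opposite directions in 2 constructs. Both calls of Rfc5 and the rise of Prim1 in MLL-AF9 cells were lost after median centring. Groups of 3 libraries were not examined for single outlying values.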

How the results depend on the processing

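Counts of called genes moved by more than 1.5 times in these settings. After median centring 11 genes rose in MLL-AF9 cells, 3 fell and 3 rose in MLL-AF6 cells, 7 passed the F test and 7 differed between MLL-AF6 and MLL-AF9 cells under DMSO. After quantile normalization 3 fell and 4 rose in MLL-AF6 cells. With each construct fitted alone, 3 fell and 10 rose in MLL-AF9 cells, 3 rose in MLL-AF6 cells, and 11 fell and 6 rose in MLL-AF1p cells. Of all genes in those fits, 2345 fell and 2372 rose of 10637 in MLL-AF9 cells. In MLL-AF6 cells 1773 of 10514 rose, and in MLL-AF1p cells 3894 fell and 2696 rose of 10624. The 9 DMSO libraries alone gave 5 differences between MLL-AF6 and MLL-AF9 cells. Same-numbered libraries of the DMSO and MI-2-2 arms had correlations of deviations of 0.00079 to 0.557, and differently numbered ones of -0.565 to 0.342. The same-numbered values were all positive, and many of the differently numbered ones were negative. Not all same-numbered values were above 0.1, so the numbers were not taken to pair libraries, although pairing is not excluded. With a block for the replicate number, 12 of 129 single-gene results gained a call and 0 lost one. With the replicate block 3 rose in MLL-AF6 cells, 11 fell in MLL-AF1p cells and 21 passed the F test. The whole table moved as well. With the block 2250 of the 11238 genes rose in MLL-AF6 cells, 3488 fell in MLL-AF1p cells and 6986 passed the F test. Without it these counts were 2025, 2953 and 5937. Orc6 in MLL-AF6 and MLL-AF1p cells and Cdc6 in MLL-AF9 and MLL-AF6 cells passed under the block. With 1 library left out at a time, falls ranged from 1 to 5, 5 to 12 and 3 to 9 and rises from 11 to 22, 0 to 3 and 1 to 4 in MLL-AF9, MLL-AF6 and MLL-AF1p, in that order. The F test passed for 9 to 24 genes, and DMSO differences numbered 6 to 14 for MLL-AF6 against MLL-AF9, 32 to 38 for MLL-AF1p against MLL-AF9 and 30 to 38 for MLL-AF1p against MLL-AF6. The log2 change of the ratios ranged from 0.25 to 0.32 for Cdt1 to Gmnn, 0.35 to 0.5 for Rrm2 to Rrm1, 0.72 to 0.91 for Rrm2 to Rrm2b and -0.39 to -0.29 for Pole2 to Pole. Of 2322 single-gene results with a library left out, 2202 kept their side of the threshold, 93 lost a call, 27 gained one and 0 reversed. A change of sign counted as a reversal only where 1 of the fits made a call. Uncalled genes could change sign unseen, as Mcm6 did in MLL-AF9 cells (-0.22 to 0.13). These results include uncalled genes and omissions of libraries from the other constructs, so they overstate how well calls held. Over all genes, voom on the recovered reads called 6206, 6320 and 5791 genes in the 3 constructs, against 6339, 6402 and 5103. Intervals cover the spread of 3 libraries a group and no more.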
